A study of Mus musculus with 9 samples.

Results

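The 98 genes described here encode subunits of the complexes of oxidative phosphorylation, and they were taken from a table of brain transcript levels with 22192 genes. They were chosen by name: the Nduf subunit genes, Sdha to Sdhd, the Uqcr genes with Cyc1, the Cox4 to Cox8 genes and the Atp5 genes, together with the 13 proteins encoded in mitochondrial DNA, which were matched by gene identifier. The rule used names and gene identifiers alone, but it was set with earlier results of these data known. The nuclear genome encodes 85 of them, 36 in complex I, 4 in complex II, 9 in complex III, 19 in complex IV and 17 in complex V. The mitochondrial genome encodes 13, 7 in complex I, 1 in complex III, 3 in complex IV and 2 in complex V. Ndufa4 was counted with complex IV, to which its protein binds, and Cox7a2l, a factor that joins complexes III and IV into supercomplexes, was counted there too.

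The samples were brains of male KM mice, an outbred stock. Aged mice of 18 months had been gavaged with GRP-E1F2 at 200 mg/kg, a fraction of the polysaccharides of ginseng root, while other aged mice of 18 months and young mice of 5 months had received oral saline, with dosing at 2-day intervals over 4 weeks. There were 3 libraries per group, described as parallel samples. Whether they are from separate animals is not stated, so the p-values reflect the spread among the libraries alone, and this may be technical. The region of the brain that was taken is not stated. The labels give brain as the tissue, but their extraction protocol mentions retina. Levels are given in TPM, a measure of transcript abundance that is scaled by transcript length. Levels of different genes are set side by side on this scale, with an unknown uncertainty for short and overlapping genes. The table keeps no counts, so the depth is unknown. In bulk tissue, fewer cells of a type and less RNA per cell cannot be told apart.

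In each group, a single library had values intermediate to those of its companions at most of the 98 genes. GRP-E1F2 library 3 did so at 80 genes, aged saline library 2 at 74 and young library 3 at 79, against 5 to 13 genes in each of the other 6 libraries. All 13 mitochondrially encoded genes followed this order in all 3 groups. Summed choroid plexus markers were 962, 19.1 and 488 TPM in GRP-E1F2 libraries 1, 2 and 3, and pituitary markers 0.873, 869 and 438 TPM. In both, library 3 was near the midpoint of its companions. In aged saline libraries 1, 2 and 3 choroid plexus markers were 158, 789 and 1249 TPM, with library 2 between the others. In young libraries 1, 2 and 3 they were 2303, 2252 and 2247 TPM, which differed little, with library 3 the lowest. Young library 3 was near the midpoint for markers that differed more. Cerebellar neuron markers were 6242, 8617 and 7437 TPM in young libraries 1, 2 and 3, and striatal ones 1342, 423 and 892 TPM. How often values lay near the midpoint, and the like count over all genes, were not computed. Whether the libraries of a group are separate samples was not tested, and each count of called genes is also given from a fit of the other 2 libraries per group.

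Complex I takes electrons from NADH and complex II from succinate. Both pass them by way of ubiquinone to complex III, from there through cytochrome c to complex IV, which reduces oxygen. Complexes I, III and IV pump protons across the inner mitochondrial membrane, and complex V, the ATP synthase, uses the return flow to make ATP. Mitochondrial DNA encodes part of the membrane core of complexes I, III, IV and V, all of complex II is encoded in the nucleus, and assembly needs products of both genomes. Neurons depend heavily on this pathway to restore ion gradients after firing.

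Transcripts of complex IV were the most abundant. Among its 12 nuclear genes other than tissue-restricted isoforms, the median level was 2667 TPM over the 9 libraries. The medians were 810.4 TPM for the 17 nuclear genes of complex V, 415 TPM for the 9 of complex III, 406 TPM for the 36 of complex I and 190 TPM for the 4 of complex II. The highest nuclear level was that of Cox8a, a small subunit of complex IV, with 10282 TPM, and the lowest among widely expressed subunits was that of Ndufs1, which carries iron-sulfur clusters of complex I, with 55.6 TPM. Among the nuclear genes, small subunits led in complexes I, III, IV and V. Ndufa1 averaged 1178 TPM in complex I, Uqcr11 averaged 5164 TPM in complex III and Atp5e, the epsilon subunit of the ATP synthase head, averaged 4395 TPM in complex V. In complex II the membrane anchor Sdhc led with 271 TPM. The mitochondrially encoded genes lay between 689 TPM for ND6 and 7059 TPM for COX1.

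**Figure D1:**
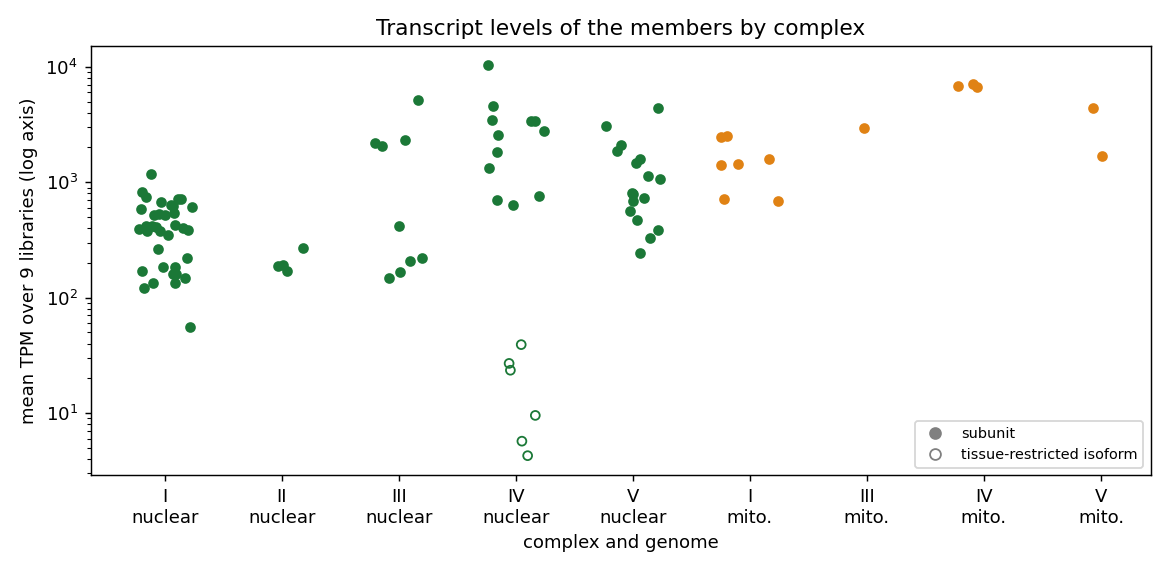
Mean TPM over 9 libraries (vertical axis, logarithmic) of the members above 0, grouped by complex and genome (horizontal axis). Each point is a gene, green for nuclear and orange for mitochondrial, and open points are tissue-restricted isoforms of complex IV subunits, which lay below every other member. Nuclear genes of complex IV other than these had a median of 2667 TPM, against 190 TPM in complex II.

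The 13 mitochondrial genes lie close together on a circular genome that is transcribed from both strands as long precursors. In the GENCODE vM21 annotation, 12 of them are on the plus strand and ND6 is alone on the minus strand. The mouse RefSeq annotation of GRCm38.p6 gave the positions, 13552 to 14070 for ND6. Several share bases. ATP8 and ATP6 overlap by 43 bases, ND5 and ND6 by 14 bases on opposite strands, ND4L and ND4 by 7 bases, and ATP6 and COX3 by 1 base. The stretch that ATP8 and ATP6 share, at chrM:7927-7969 on the plus strand, is shown because it is part of both genes counted as complex V members, which are read in different frames from it. The capitals mark the start codon of ATP6 and the stop codon of ATP8, and the sequence was taken from the GENCODE vM21 transcripts of GRCm38.
ATP8-ATP6 overlap: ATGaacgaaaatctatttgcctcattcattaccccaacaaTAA
How reads in such overlaps were assigned is not given, nor is the handling of strand, so ND6 and RNA antisense to it cannot be told apart from these values.

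The order of the groups differed between the 2 genomes. Transcripts of the 85 nuclear genes summed to 78004, 83382 and 81151 TPM in the GRP-E1F2 libraries, 79354, 85325 and 92689 TPM in the aged saline libraries and 88157, 97873 and 92389 TPM in the young libraries. All 3 GRP-E1F2 libraries lay below all 3 young libraries, and the aged saline libraries overlapped with both. The 13 mitochondrial genes summed to 35353, 42588 and 39234 TPM in the GRP-E1F2 libraries, 49882, 43987 and 39721 TPM in the aged saline libraries and 36562, 39135 and 37936 TPM in the young libraries. Here the aged saline libraries were all above the young ones, while the GRP-E1F2 libraries overlapped with both other groups. These sums were 3.54% to 4.26%, 3.97% to 4.99% and 3.66% to 3.91% of all TPM in the GRP-E1F2, aged saline and young libraries.

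The mitochondrial sum was 0.453, 0.511 and 0.483 times the nuclear sum in the GRP-E1F2 libraries, 0.629, 0.516 and 0.429 times in the aged saline libraries and 0.415, 0.400 and 0.411 times in the young libraries. Every aged library, treated or not, was above every young one, by as little as 0.429 against 0.415. Group means of this ratio were 0.482 ± 0.0288 with GRP-E1F2, 0.524 ± 0.1003 with aged saline and 0.408 ± 0.00768 in young brains (SD, n = 3 each). The spread was set by the aged saline group, in which the genomes ran in opposite order over the libraries: library 1 had the highest mitochondrial and the lowest nuclear sum, and library 3 the reverse. In the other groups the sums of both genomes ran in the same order over the libraries. Within complex I, the ratio of its 7 mitochondrial to its 36 nuclear genes was 0.665, 0.763 and 0.717 in the GRP-E1F2 libraries, 0.974, 0.791 and 0.685 in the aged saline libraries and 0.585, 0.607 and 0.602 in the young libraries. The GRP-E1F2 libraries lay above the young ones in complexes I, III, IV and V, and the aged saline libraries did so in complexes I and V. In complex III aged saline library 3, at 0.195, was below the young range of 0.199 to 0.210, and in complex IV the same library, at 0.518, was inside the young range of 0.488 to 0.521.

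**Figure D2:**
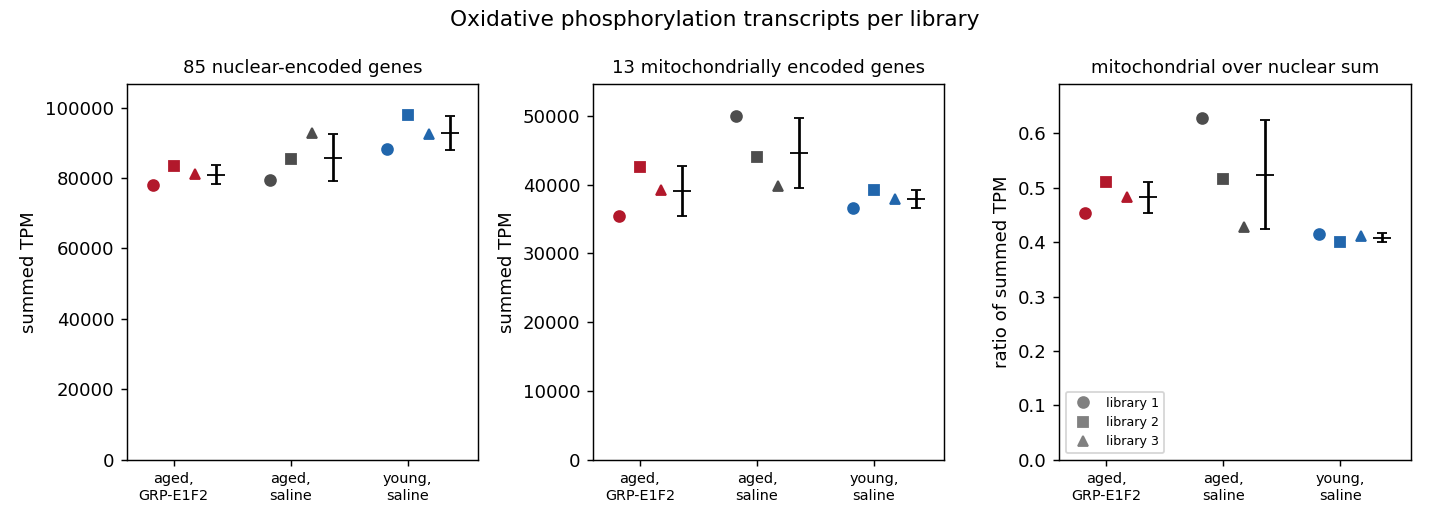
Summed TPM of the 85 nuclear genes (left), of the 13 mitochondrial genes (middle) and their ratio (right) in the 9 libraries. Points are libraries and bars the mean ± SD of a group (n = 3). The nuclear sum reached 83382 TPM with GRP-E1F2 against at least 88157 TPM in young brains, and aged saline library 1 had the highest ratio, 0.629.

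Each mitochondrial gene had a higher mean in aged saline than in young brains and a lower mean in aged GRP-E1F2 than in aged saline brains. Few of these differences passed the test. Both comparisons use the aged saline libraries, so the opposite signs are not independent of each other. Of the 13, 3 fell with GRP-E1F2 against aged saline, where 13.4% of all 13301 genes tested fell and 20.8% passed in either direction, and 3 rose in aged saline against young brains, where 5.48% of all genes tested rose and 16.7% passed in either direction. They were ND4L, ND5 and ND6 in both, all of them subunits of the proton-pumping membrane arm of complex I. The median log2 fold change of the 13 genes was -0.27 with GRP-E1F2 against aged saline, against -0.02 over all genes tested, and 0.28 in aged saline against young brains, against -0.05 over all genes. Without GRP-E1F2 library 1 the first median was -0.16, and without aged saline library 1 the medians were -0.16 and 0.17. With 2 libraries per group they were -0.25 and 0.29, but 0 mitochondrial genes were then called by limma in either comparison, with 2 and 3 at an unadjusted p under 0.05.

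ND6 had 556, 671 and 603 TPM in the GRP-E1F2 libraries, 962, 853 and 715 TPM in the aged saline libraries and 572, 648 and 617 TPM in the young libraries. The aged saline libraries were all above both other groups, which overlapped. Its log2 fold change was -0.46 ± 0.11 (SE, adjusted p = 0.0198) with GRP-E1F2 against aged saline and 0.45 ± 0.11 (adjusted p = 0.0287) in aged saline against young brains. ND5, the largest of these subunits, had 641, 671 and 669 TPM with GRP-E1F2, 936, 807 and 746 TPM in aged saline and 626, 676 and 655 TPM in young brains. The same order held, with log2 fold changes of -0.32 ± 0.08 (adjusted p = 0.0221) and 0.34 ± 0.08 (adjusted p = 0.0250). ND4L had 2119, 2527 and 2331 TPM with GRP-E1F2, 3089, 2974 and 2698 TPM in aged saline and 2124, 2373 and 2273 TPM in young brains. Here too the aged saline libraries stood above the rest, with log2 fold changes of -0.33 ± 0.08 (adjusted p = 0.0228) and 0.37 ± 0.08 (adjusted p = 0.0213).

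The other 4 complex I genes on this genome did not pass in either comparison. ND1 averaged 2321 ± 333 TPM with GRP-E1F2, 2795 ± 417 TPM in aged saline and 2293 ± 113 TPM in young brains (SD, n = 3 each). ND2 averaged 1369 ± 154, 1587 ± 299 and 1318 ± 72.3 TPM in the same order of groups. The adjusted p-values of ND4, whose means were 1506 ± 192, 1807 ± 162 and 1438 ± 98.3 TPM, were 0.10 and 0.0595, and those of ND3, whose means were 1358 ± 191, 1651 ± 267 and 1254 ± 60.9 TPM, were 0.16 and 0.0711. The difference from young brains was thus near the threshold for both, and the aged saline libraries of both were all above the young ones.

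The complex III and IV genes of this genome did not pass in any comparison. CYTB, the cytochrome b of complex III, averaged 2821 ± 161 TPM with GRP-E1F2, 3215 ± 393 TPM in aged saline and 2831 ± 133 TPM in young brains (SD, n = 3 each). COX1, the subunit that holds the oxygen-reducing centre of complex IV, averaged 6786 ± 529, 7601 ± 831 and 6789 ± 129.7 TPM in that order. COX2, which accepts electrons from cytochrome c, averaged 6729.8 ± 628, 7259 ± 1092 and 6485 ± 185 TPM, and COX3 averaged 6760.0 ± 583, 7228 ± 796 and 6257 ± 39.3 TPM. Their log2 fold changes in aged saline against young brains were 0.15 to 0.20, with adjusted p-values of 0.15 to 0.36, and with GRP-E1F2 against aged saline they were -0.18 to -0.09, with adjusted p-values of 0.19 to 0.55.

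ATP8 departed from its neighbours. It had 1499, 1487 and 1489.5 TPM in the GRP-E1F2 libraries, 1602, 1849.8 and 2013 TPM in the aged saline libraries and 1601, 1879 and 1687 TPM in the young libraries, and was the single mitochondrial gene whose highest value was in aged saline library 3 instead of library 1. ATP6, with which it shares an RNA and the stretch shown above, had 3720.4, 4886 and 4351 TPM with GRP-E1F2, 5646, 4928 and 4342 TPM in aged saline and 3755, 4177 and 3976 TPM in young brains. In the aged saline group the pair thus ran in opposite order over the libraries. ATP8 was 40.3, 30.4 and 34.2% of ATP6 in the GRP-E1F2 libraries, 28.4, 37.5 and 46.3% in the aged saline libraries and 42.6, 45.0 and 42.4% in the young libraries. ATP8 is the shortest of the 13 genes, at 204 bases. It did not pass with GRP-E1F2 against aged saline (log2 fold change -0.28 ± 0.09, adjusted p = 0.0542), although the groups did not overlap, and ATP6 did not pass in aged saline against young brains (0.32 ± 0.12, adjusted p = 0.0931).

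**Figure D3:**
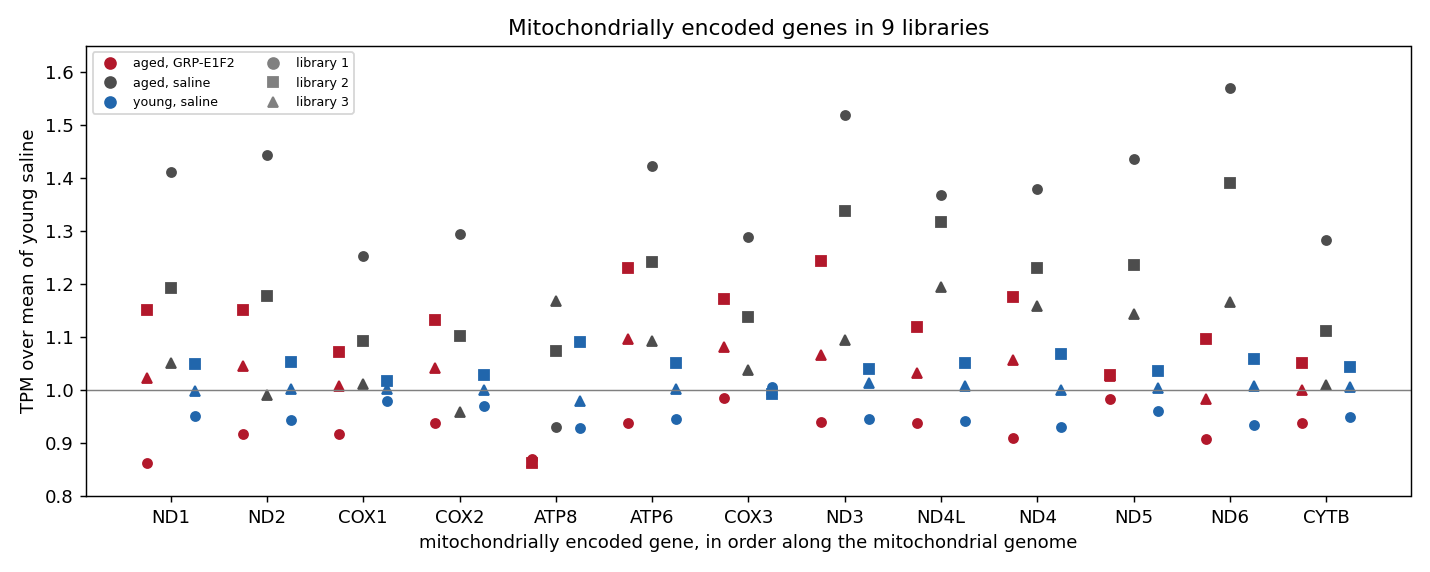
TPM of each mitochondrially encoded gene in each library divided by the mean of the 3 young libraries (vertical axis), with genes in their order along the mitochondrial genome. Colours mark the groups and symbols the library numbers. Aged saline library 1 was highest at 12 of 13 genes, ATP8 being the exception, and GRP-E1F2 library 1 was lowest at 11.

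Against young brains, 0 of the 13 mitochondrial genes passed with GRP-E1F2 by limma, where 46.6% of all genes tested passed in either direction, and 1 had an unadjusted p under 0.05. That gene was ATP8, with a log2 fold change of -0.20 ± 0.09 (adjusted p = 0.0901). The other 12 lay between -0.01 and 0.11, and their 95% intervals reached from -0.28 to 0.40 at the widest, so differences of that size are not excluded by these data. Without aged saline library 1, which enters through the shared estimate of spread, 1 mitochondrial gene passed, and 1 did in a fit of only the groups compared. Of all genes tested, 49.9% and 48.4% passed in these fits.

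Of the 84 nuclear genes tested, 5 fell with GRP-E1F2 against aged saline and 0 rose, in limma with p adjusted over all genes, where 13.4% of all genes fell and 7.47% rose. At an unadjusted p under 0.05 there were 18. The share called was below that over all genes, and 69 of the 84 had a negative log2 fold change, with a median of -0.09 against -0.02 over all genes. That median was -0.05 without aged saline library 3, -0.06 without GRP-E1F2 library 1 and -0.06 under median-of-ratios scaling, which put the median over all genes at 0.01. In 16 genes all GRP-E1F2 libraries were below all aged saline libraries, where 21.5% of all genes did not overlap in this direction, and in 0 genes all were above, where 14.9% of all genes did not overlap. Of the 5 genes that fell, 3 were tissue-restricted isoforms of complex IV subunits, described further on, and Ndufv3 and Atp5g3 were the others.

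Ndufv3, an accessory subunit of the module of complex I that oxidises NADH, had 412, 445 and 439 TPM in the GRP-E1F2 libraries, 511, 548 and 554 TPM in the aged saline libraries and 579.7, 677 and 612 TPM in the young libraries. No 2 groups overlapped. Its log2 fold change was -0.31 ± 0.07 (adjusted p = 0.0127) with GRP-E1F2 against aged saline and -0.52 ± 0.07 (adjusted p = 0.00035) against young brains, and that of aged saline against young brains, -0.21 ± 0.07, did not pass (adjusted p = 0.0643). Atp5g3, one of 3 genes for the membrane ring subunit c of the ATP synthase, had 1276, 1434 and 1354 TPM with GRP-E1F2, 1460.3, 1667 and 1744 TPM in aged saline and 1750.0, 1934 and 1786 TPM in young brains. The groups again did not overlap. Its log2 fold change with GRP-E1F2 against aged saline was -0.26 ± 0.08 (adjusted p = 0.0488), just inside the threshold. The other genes for the same protein did not pass in that comparison. Atp5g1 had a log2 fold change of -0.05 ± 0.05 and Atp5g2 of -0.11 ± 0.07.

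The largest positive fold changes with GRP-E1F2 were those of Cox6a2, an isoform described below, and of Atp5e, Cox7a2l and Atp5mpl, and they did not pass. Atp5e had 4154, 4873 and 4533 TPM with GRP-E1F2, 3234, 3585 and 5649.9 TPM in aged saline and 3923, 5363 and 4243 TPM in young brains, with overlap of all groups. Cox7a2l had 694, 836 and 766 TPM with GRP-E1F2 and 719, 718 and 625 TPM in aged saline (log2 fold change 0.15 ± 0.08, adjusted p = 0.21). Atp5mpl, a small proteolipid of the ATP synthase, averaged 2100.1 ± 207 TPM with GRP-E1F2 and 1934 ± 144 TPM in aged saline brains (SD, n = 3 each). Without 1 library the nuclear count of 5 became 3 (GRP-E1F2 library 1, GRP-E1F2 library 3 or young library 2), 20 (aged saline library 1) or 1 (aged saline library 2), and the mitochondrial count of 3 became 0 without GRP-E1F2 library 1, GRP-E1F2 library 3 or aged saline library 2. In these fits, in the order given for the nuclear count, 19.6%, 10.4%, 20.4%, 23.1% and 10.1% of all genes were called. Without GRP-E1F2 library 1, the nuclear calls were 1 higher and 2 lower, while in the other fits named all were lower. With 2 libraries per group 0 nuclear genes were called by limma and 5 had an unadjusted p under 0.05, where 1.87% of all genes were called. Fitting only the groups compared gave 3 nuclear and 1 mitochondrial calls, where 15.5% of all genes were called.

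In aged saline against young brains, 6 of 84 nuclear genes fell and 2 rose, where 11.2% and 5.48% of all genes tested did. At an unadjusted p under 0.05 there were 31. Negative fold changes were found for 73 of the 84, with a median of -0.13 against -0.05 over all genes. Under median-of-ratios scaling these medians were -0.08 and -0.01. In 34 genes all aged saline libraries were below all young ones, and in 3 all were above, where 26.8% and 14.7% of all genes did not overlap in these directions. The direction was thus opposite to that of the mitochondrial genes, all 13 of which had a higher mean in aged saline brains.

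The genes that fell were spread over complexes II, IV and V, with 0 called in complexes I and III by limma and 12 and 2 there at an unadjusted p under 0.05. Sdha, the subunit of complex II that oxidises succinate, had 182, 176 and 178 TPM with GRP-E1F2, 182, 178 and 185 TPM in aged saline and 208, 216 and 213 TPM in young brains. Every aged library was below every young one, and the aged groups overlapped (aged saline against young brains -0.22 ± 0.04 on the log2 scale, adjusted p = 0.0151). Atp5a1 and Atp5b encode the alpha and beta subunits that form the catalytic head of the ATP synthase. Atp5b had 767, 777 and 828 TPM in aged saline and 872, 943 and 915 TPM in young brains, without overlap (log2 fold change -0.20 ± 0.05, adjusted p = 0.0342). Atp5a1 had 519, 525 and 567 TPM in aged saline and 596, 639 and 617 TPM in young brains, also without overlap (-0.20 ± 0.05, adjusted p = 0.0363). Both fell by a like amount.

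Atp5h, a subunit of the stalk that holds the head in place, had 672, 649 and 625 TPM in aged saline and 749, 799 and 783 TPM in young brains (log2 fold change -0.26 ± 0.07, adjusted p = 0.0310). In complex IV, Cox6c had 3023, 3319 and 3409 TPM in aged saline and 3701, 3814 and 3821 TPM in young brains (-0.22 ± 0.06, adjusted p = 0.0388). Neither gene's groups overlapped. Ndufs7, which carries an iron-sulfur cluster near the ubiquinone site of complex I, had the largest negative fold change outside the called genes and Cox6b2, -0.25 ± 0.09 (adjusted p = 0.0946), with 184, 212 and 247 TPM in aged saline and 243, 261 and 258 TPM in young brains. Its aged saline library 3 was inside the young range. Leaving out 1 library changed the nuclear count of 8 to 4 (GRP-E1F2 library 3 or aged saline library 1), 1 (aged saline library 2, young library 2 or young library 3) or 16 (aged saline library 3). In these fits, in that order, 8.95%, 10.1%, 2.87%, 4.62%, 2.57% and 19.3% of all genes were called. The mitochondrial count of 3 became 5 (GRP-E1F2 library 2), 1 (aged saline library 1 or young library 1), 0 (aged saline library 2, young library 2 or young library 3) or 6 (aged saline library 3). Without GRP-E1F2 library 2 or young library 1, 19.9% and 17.4% of all genes were called. With 2 libraries per group 0 nuclear genes were called by limma and 3 had an unadjusted p under 0.05, where 0.0226% of all genes were called. Median-of-ratios scaling gave 4 nuclear calls, 2 higher and 2 lower, where 14.6% of all genes were called. Sdha and Cox7a1 still fell under that scaling, while Cox6c and the complex V genes Atp5b, Atp5a1 and Atp5h were not called.

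The widest separation was between aged GRP-E1F2 and young brains. Here 40 of 84 nuclear genes fell and 2 rose, where 29.4% and 17.2% of all genes tested did. Negative fold changes were found for 74 of the 84, with a median of -0.20 against -0.07 over all genes. Under median-of-ratios scaling these were -0.12 and 0.00. In 60 genes all GRP-E1F2 libraries were below all young ones, where 38.5% of all genes did not overlap in this direction, and in 2 all were above, where 22.9% of all genes did not overlap. The genes that fell were 18 of 36 in complex I, 3 of 4 in complex II, 3 of 9 in complex III, 9 of 18 in complex IV and 7 of 17 in complex V. This comparison holds age and treatment together, and the 2 cannot be told apart in it.

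In complex I, 4 of 7 nuclear core genes fell, among them Ndufs7 and Ndufs8, which carry iron-sulfur clusters, and Ndufv1, which carries the flavin. Ndufs7 fell most, to 201, 187 and 194 TPM with GRP-E1F2, against 243, 261 and 258 TPM in young brains (-0.39 ± 0.09 on the log2 scale, adjusted p = 0.00883). The log2 fold changes were -0.27 for Ndufs8 and -0.20 for Ndufv1, with adjusted p-values of 0.0109 and 0.0271. Ndufs1 and Ndufs3 did not pass. Of 29 accessory genes, 14 fell, namely Ndufv3, Ndufb8, Ndufa13, Ndufb10, Ndufa1, Ndufa6, Ndufa3, Ndufb11, Ndufc2, Ndufa5, Ndufs5, Ndufa9, Ndufb2 and Ndufb4, with log2 fold changes from -0.52 for Ndufv3 to -0.15 for Ndufb4.

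Ndufb8, in the distal membrane arm of complex I, had 448, 459 and 433 TPM with GRP-E1F2, 467, 510.0 and 556 TPM in aged saline and 573, 619 and 591 TPM in young brains. The 3 groups did not overlap (-0.41 ± 0.07 against young brains, adjusted p = 0.00136). The most abundant nuclear genes of complex I, Ndufa1 and Ndufs5, had log2 fold changes of -0.34 ± 0.07 (adjusted p = 0.00362) and -0.22 ± 0.07 (adjusted p = 0.0292). Not all genes of the complex moved. Ndufa10 had 137, 132 and 132 TPM with GRP-E1F2, 131, 134 and 135 TPM in aged saline and 132, 134 and 133 TPM in young brains, and the 95% interval of its log2 fold change against young brains was -0.09 to 0.11.

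Complex II showed the same fall in Sdha and in both membrane anchors. Sdha had a log2 fold change of -0.25 ± 0.04 (adjusted p = 0.00195). Sdhc had 225, 279.7 and 251 TPM with GRP-E1F2, 244, 259 and 265 TPM in aged saline and 311, 297 and 305 TPM in young brains, and every aged library was below every young one (-0.28 ± 0.08, adjusted p = 0.0158). Sdhd fell by a similar amount (-0.21 ± 0.06, adjusted p = 0.0251). Under median-of-ratios scaling Sdhc and Sdhd were not called, while Sdha still fell. The gene for the iron-sulfur subunit, Sdhb, had 163, 181 and 180.2 TPM with GRP-E1F2 and 167, 168 and 164 TPM in young brains and did not pass (0.07 ± 0.05, adjusted p = 0.33).

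In complex III, Cyc1, which encodes cytochrome c1, had 197, 193 and 189 TPM with GRP-E1F2, 194, 213 and 243 TPM in aged saline and 241, 266 and 255 TPM in young brains. It fell against young brains by more than the other genes of the complex that passed (-0.40 ± 0.08, adjusted p = 0.00345), which were Uqcrh (-0.30 ± 0.07, adjusted p = 0.00921) and Uqcrc1 (-0.23 ± 0.08, adjusted p = 0.0496). The 2 most abundant nuclear genes of the complex, Uqcr11 and Uqcr10, did not pass. Uqcr11 had 4853, 4658 and 4795 TPM with GRP-E1F2, 4252, 4853 and 6528 TPM in aged saline and 5184, 6077 and 5275 TPM in young brains, and the spread of the aged saline libraries was the widest. Uqcr10 averaged 2177 ± 32.5 TPM with GRP-E1F2, 2288 ± 351 TPM in aged saline and 2451 ± 198 TPM in young brains (SD, n = 3 each).

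In complex IV, 7 of 11 widely expressed accessory genes fell against young brains: Ndufa4, Cox6a1, Cox7b, Cox6c, Cox4i1, Cox8a and Cox5a. Ndufa4 had 3005, 3089 and 3113 TPM with GRP-E1F2, 3579, 3481 and 3197 TPM in aged saline and 3642, 4239.9 and 4075 TPM in young brains, and the 3 groups did not overlap (-0.37 ± 0.07 against young brains, adjusted p = 0.00277). Cox8a, the most abundant member, had 9722, 8845 and 9399.8 TPM with GRP-E1F2, 9345, 10478 and 11574 TPM in aged saline and 10566, 11459 and 11151 TPM in young brains (-0.25 ± 0.09, adjusted p = 0.0405). Cox7c averaged 4162 ± 304 TPM with GRP-E1F2, 4612 ± 419 TPM in aged saline and 4879 ± 327 TPM in young brains and did not pass (adjusted p = 0.0567). The supercomplex factor Cox7a2l went the other way. It had 694, 836 and 766 TPM with GRP-E1F2 and 637, 644 and 668 TPM in young brains, every treated library above every young one, and rose (0.23 ± 0.08, adjusted p = 0.0407).

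In complex V, both catalytic head genes named above fell against young brains, Atp5b with a log2 fold change of -0.32 ± 0.05 (adjusted p = 0.00133) and Atp5a1 with one of -0.20 ± 0.05 (adjusted p = 0.0134). So did Atp5g3 (-0.43 ± 0.08, adjusted p = 0.00235) and, by less, Atp5g1 (-0.20 ± 0.05, adjusted p = 0.00802) among the subunit c genes. The stalk genes Atp5h, Atp5o and Atp5j fell with log2 fold changes of -0.28, -0.27 and -0.20. Atp5md, a small subunit between ATP synthase dimers, had the largest positive fold change of the complex and did not pass, with 2843, 3609.8 and 3316 TPM with GRP-E1F2, 3006, 2828 and 3142 TPM in aged saline and 2750.3, 3134 and 2750.3 TPM in young brains (0.17 ± 0.10, adjusted p = 0.17). Atp5e was at 0.01 ± 0.20 (adjusted p = 0.96). With 2 libraries per group 4 nuclear genes were called, Cox6b2, Cox7a1 and Ndufv3 lower and Cox6a2 higher, where 12.9% of all genes were called, and 18 nuclear genes had an unadjusted p under 0.05. Median-of-ratios scaling gave 23 calls, 2 higher and 21 lower, in place of 42. Under that scaling 45.8% of all 13297 genes tested were called, 3017 higher and 3069 lower.

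**Figure D4:**
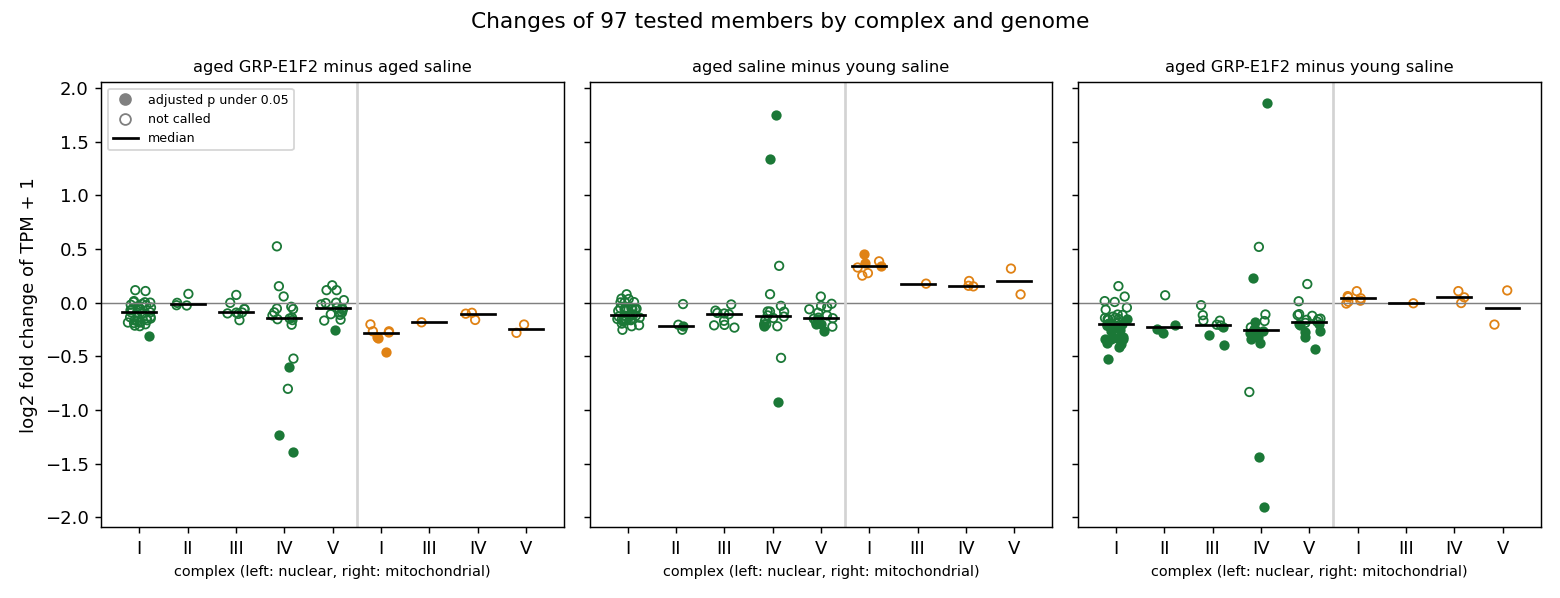
Log2 fold change of TPM + 1 (vertical axis) of the 97 tested members by complex and genome (horizontal axis) in the 3 comparisons. Each point is a gene, filled where its adjusted p was under 0.05, and black bars are medians. Mitochondrial genes (orange) lay below 0 with GRP-E1F2 against aged saline, above 0 in aged saline against young brains and near 0 between GRP-E1F2 and young brains, while the nuclear medians were negative in each.

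Transcript levels of 7 subunit isoforms of complex IV that are known from muscle, lung or testis were low in these brains. Cox8c, a testis isoform, was listed at 0 in every library and could not be tested. The other 6 ranged in mean from 4.27 TPM for Cox4i2 to 39.1 TPM for Cox6b2, between 0.0395% and 2.03% of the matching common isoform in group means. They held the largest fold changes of all the members in each comparison. Their counting error is unknown.

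Cox6a2, known from heart and skeletal muscle, had 28.6, 50.6 and 46.7 TPM in the GRP-E1F2 libraries, 23.7, 33.4 and 27.8 TPM in the aged saline libraries and 11.2, 9.91 and 10.3 TPM in the young libraries. Every aged library was above every young one, and the aged groups overlapped. It rose in aged saline against young brains (1.34 ± 0.20 on the log2 scale, adjusted p = 0.00612) and with GRP-E1F2 against young brains (1.87 ± 0.20, adjusted p = 0.00011), and did not pass with GRP-E1F2 against aged saline (0.53 ± 0.20, adjusted p = 0.0914). Its common partner Cox6a1 fell with GRP-E1F2 against young brains, and Cox6a2 was 1.42 ± 0.368% of Cox6a1 with GRP-E1F2, 0.826 ± 0.0886% in aged saline and 0.282 ± 0.0274% in young brains (SD, n = 3 each).

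Cox7a1, another muscle isoform, went the other way, with 10.4, 16.8 and 12.6 TPM in the GRP-E1F2 libraries, 13.9, 21.4 and 23.4 TPM in the aged saline libraries and 32.8, 46.3 and 33.7 TPM in the young libraries. The young libraries were all above the aged ones. It fell in aged saline against young brains (-0.92 ± 0.22, adjusted p = 0.0266) and with GRP-E1F2 against young brains (-1.44 ± 0.22, adjusted p = 0.00084), while GRP-E1F2 against aged saline gave -0.52 ± 0.22 (adjusted p = 0.13). As a share of the common isoform Cox7a2 it was 0.520 ± 0.105% with GRP-E1F2, 0.805 ± 0.215% in aged saline and 1.37 ± 0.242% in young brains. Cox8b, the third muscle isoform, had 6.34, 4.71 and 8.53 TPM in the GRP-E1F2 libraries, 10.3, 14.5 and 28.4 TPM in the aged saline libraries and 5.72, 4.94 and 2.39 TPM in the young libraries. It was highest in the aged saline group, without overlap with either other group, and most so in library 3. Cox8b fell with GRP-E1F2 against aged saline (-1.23 ± 0.37, adjusted p = 0.0437) and rose in aged saline against young brains (1.75 ± 0.37, adjusted p = 0.0175). The 3 muscle isoforms therefore did not move as a group.

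Cox6b2, known from testis, had 24.7, 8.95 and 15.2 TPM in the GRP-E1F2 libraries, 36.6, 40.6 and 47.2 TPM in the aged saline libraries and 53.3, 70.0 and 55.8 TPM in the young libraries. No 2 groups overlapped. It fell with GRP-E1F2 against aged saline (-1.39 ± 0.29, adjusted p = 0.00979) and against young brains (-1.91 ± 0.29, adjusted p = 0.00074), and did not pass in aged saline against young brains (-0.51 ± 0.29, adjusted p = 0.23). It was 0.635 ± 0.328% of Cox6b1 with GRP-E1F2, 1.49 ± 0.111% in aged saline and 2.03 ± 0.209% in young brains. Cox4i2, which replaces Cox4i1 in lung and under low oxygen, had 3.07, 2.66 and 4.06 TPM with GRP-E1F2, 5.29, 6.43 and 4.64 TPM in aged saline and 3.38, 4.70 and 4.17 TPM in young brains. Its GRP-E1F2 libraries were all below the aged saline ones and it fell between them (-0.60 ± 0.15, adjusted p = 0.0239). Cox7b2, a testis isoform, had 1.80, 4.24 and 4.35 TPM with GRP-E1F2, 9.34, 5.23 and 5.46 TPM in aged saline and 4.02, 9.36 and 7.51 TPM in young brains. Its GRP-E1F2 libraries were below the aged saline ones, and it did not pass in any comparison (adjusted p = 0.12, 0.96 and 0.0681 for GRP-E1F2 against aged saline, aged saline against young and GRP-E1F2 against young).

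**Figure D5:**
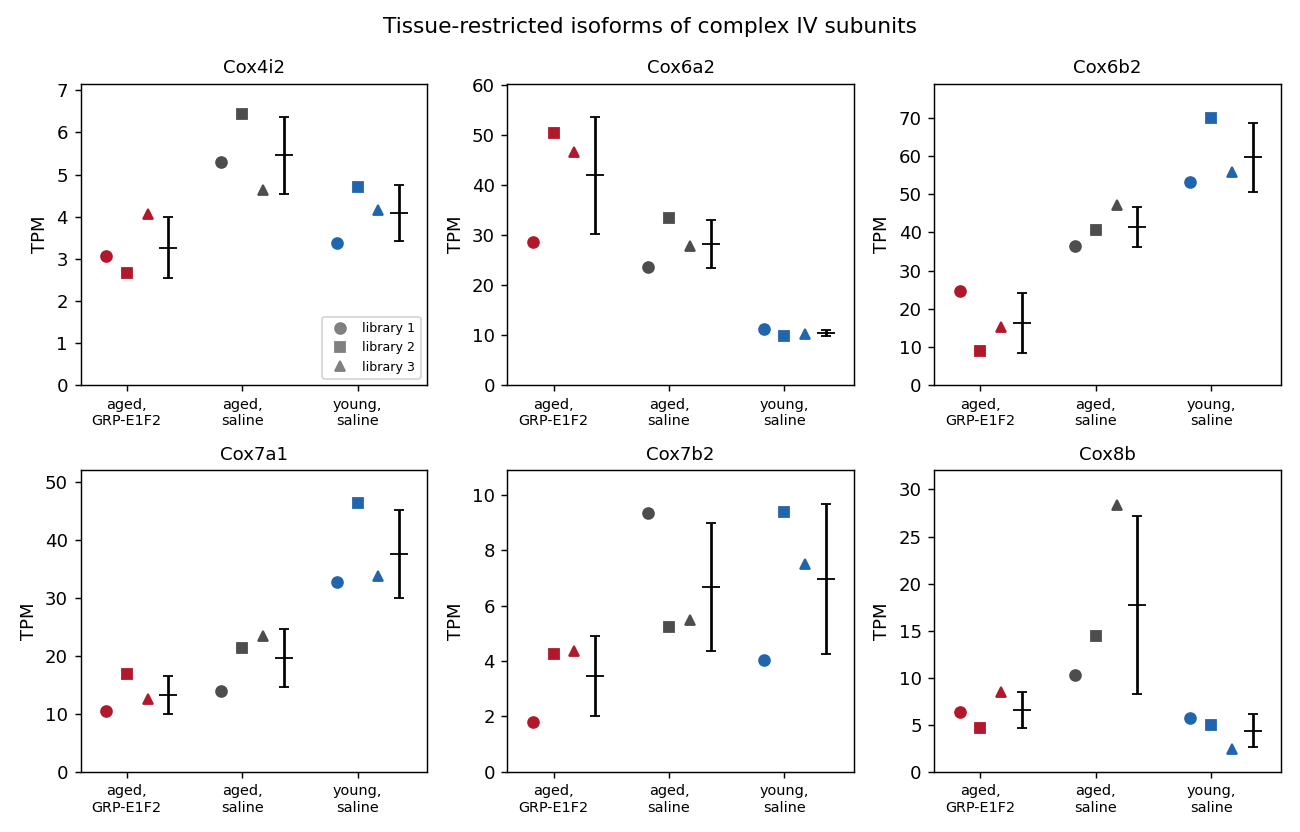
TPM (vertical axes, each from 0) of 6 tissue-restricted isoforms of complex IV subunits in the 9 libraries. Points are libraries and bars the mean ± SD of a group (n = 3). Cox6a2 was at 28.6 to 50.6 TPM with GRP-E1F2 and 9.91 to 11.2 TPM in young brains, Cox6b2 and Cox7a1 ran in the opposite direction, and Cox8b was highest in aged saline brains.

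Markers of striated muscle were low in all groups. Their 5 genes summed to 15.3 to 22.2 TPM in the GRP-E1F2 libraries, 13.02 to 14.5 TPM in the aged saline libraries and 7.21 to 11.9 TPM in the young libraries, most of it Acta1 and Tnnt2, and the muscle creatine kinase gene Ckm was at most 0.427 TPM. Of the 3 tested, Tnnt2 rose and Mb fell with GRP-E1F2 against aged saline, Tnnt2 rose in aged saline against young brains, and Tnnt2 and Acta1 rose and Mb fell with GRP-E1F2 against young brains. Of 2 brown fat markers, Ucp1 was listed at 0 in every library. The other, Cidea, was at 4.93 to 6.87 TPM with GRP-E1F2, 6.14 to 9.75 TPM in aged saline and 7.89 to 11.05 TPM in young brains. Cidea fell with GRP-E1F2 against young brains (log2 fold change -0.55) and did not pass in the other comparisons. The part of such tissue in the muscle isoforms was not tested.

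The promoters of 2 isoform pairs are shown for comparison, chosen after their values were seen, with those of Ndufv3, which separated all 3 groups, and Cox6a1, the common partner of Cox6a2, which holds the most motif matches of those shown. Each is the stretch of 250 bases before the transcription start in RefSeq, build GRCm38.p6, read 5′ to 3′ on the strand of the gene. The start is the first that the promoter table lists for a gene, which for Cox7a2 lies inside the bounds RefSeq gives that gene, 79755241 to 79771422 on chromosome 9, while the other 5 stretches adjoin theirs. Capitals mark matches, on either strand, to 6 motifs. The NRF1 site is a palindrome of 10 bases, spelled by the first run of capitals in the Cox6a1 promoter. The ETS site is CCGGAAG. An SP1 site was searched for as GGGCGG. The CCAAT box is named by its letters. For the TATA box the search used TATAAA. The E-box was taken as CAGCTG. NRF1 and the ETS factor GABP are regulators known to bind promoters of respiratory chain genes, and the E-box is the site of muscle factors such as MyoD. The Cox7a1 stretch is at chr7:30183921-30184170 on the plus strand and that of Cox7a2 at chr9:79759854-79760103 on the minus strand. The Cox8b stretch is at chr7:140900447-140900696 on the minus strand and that of Cox8a at chr19:7217617-7217866 on the minus strand. Those of Ndufv3 and Cox6a1 are at chr17:31519865-31520114 on the plus strand and chr5:115348959-115349208 on the minus strand.
Cox7a1: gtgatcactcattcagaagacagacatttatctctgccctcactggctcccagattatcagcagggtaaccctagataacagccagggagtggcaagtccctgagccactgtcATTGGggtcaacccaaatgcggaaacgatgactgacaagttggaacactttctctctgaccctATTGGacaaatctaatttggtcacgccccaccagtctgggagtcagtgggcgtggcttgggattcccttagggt
Cox7a2: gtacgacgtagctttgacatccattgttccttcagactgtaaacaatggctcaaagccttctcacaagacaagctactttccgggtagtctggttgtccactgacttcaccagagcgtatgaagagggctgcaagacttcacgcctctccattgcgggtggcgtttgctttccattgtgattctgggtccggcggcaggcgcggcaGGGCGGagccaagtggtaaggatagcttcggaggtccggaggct
Cox8b: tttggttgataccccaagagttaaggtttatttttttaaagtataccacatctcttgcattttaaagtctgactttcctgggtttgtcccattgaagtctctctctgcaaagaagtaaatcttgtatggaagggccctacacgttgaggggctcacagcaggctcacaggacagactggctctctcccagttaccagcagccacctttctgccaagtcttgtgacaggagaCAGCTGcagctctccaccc
Cox8a: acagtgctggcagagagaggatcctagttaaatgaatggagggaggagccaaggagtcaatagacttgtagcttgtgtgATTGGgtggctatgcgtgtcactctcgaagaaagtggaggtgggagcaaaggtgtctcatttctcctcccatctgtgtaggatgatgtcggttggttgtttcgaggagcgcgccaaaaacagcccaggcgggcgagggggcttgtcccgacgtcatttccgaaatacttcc
Ndufv3: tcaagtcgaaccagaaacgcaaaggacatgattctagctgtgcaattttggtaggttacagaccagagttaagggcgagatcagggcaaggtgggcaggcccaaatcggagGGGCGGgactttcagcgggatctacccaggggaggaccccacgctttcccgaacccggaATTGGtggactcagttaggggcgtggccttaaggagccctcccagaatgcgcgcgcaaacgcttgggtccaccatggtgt
Cox6a1: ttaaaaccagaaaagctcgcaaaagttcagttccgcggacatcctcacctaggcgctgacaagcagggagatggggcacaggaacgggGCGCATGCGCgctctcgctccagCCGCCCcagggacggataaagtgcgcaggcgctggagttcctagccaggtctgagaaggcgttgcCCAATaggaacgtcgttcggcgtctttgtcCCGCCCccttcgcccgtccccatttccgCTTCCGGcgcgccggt

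The 2 pairs shown differed in their number of CpG dinucleotides, and Cox6a2 was not compared. G and C made up 51.2% of the bases for Cox7a1 against 54.8% for Cox7a2, and 47.2% for Cox8b against 52.8% for Cox8a. The Cox7a1 stretch held 4 CpG dinucleotides against 14 for Cox7a2 at the start used, and the Cox8b stretch 1 against 11 for Cox8a. The Cox8b stretch had an E-box near its end and no match to the other 5 motifs, while Cox7a1 had 2 CCAAT boxes. The Cox6a1 stretch held 26 CpG dinucleotides and matches to 4 of the 6 motifs. Over the 69 nuclear members with a promoter in the table, 4 held the NRF1 site (5.80%), against 1.54% of 10440 tested genes and 0.781% of all 27025 promoters, 1 per gene. The ETS site was in 11 (15.9%), against 12.8% of tested genes and 7.05% of all promoters, and the CCAAT box in 30 (43.5%), against 36.0% and 34.5%. The SP1 site was in 25 (36.2%), against 59.3% of tested genes and 32.9% of all promoters. The TATA box was in 7 (10.1%), against 6.35% and 12.97%, and the E-box in 6 (8.70%), against 11.7% and 12.8%. Besides Cox6a1, the NRF1 site was in the promoters of Atp5g2, Atp5k and Ndufa11. No 2 matches overlapped in the promoters shown, and a match is a description of the sequence only.

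Markers of cell types and brain regions differed between the groups in the same libraries. Of all genes tested, 13.4% fell and 7.47% rose with GRP-E1F2 against aged saline. In aged saline against young brains 11.2% fell and 5.48% rose, and with GRP-E1F2 against young brains 29.4% fell and 17.2% rose. The 12 markers of cerebellar neurons summed to 508 to 598 TPM in the GRP-E1F2 libraries, 4109 to 4387 TPM in the aged saline libraries and 6242 to 8617 TPM in the young libraries, and 12 fell with GRP-E1F2 against aged saline, 11 in aged saline against young brains and 12 with GRP-E1F2 against young brains. Pcp2, a Purkinje cell gene, was at 3.16 to 9.09 TPM with GRP-E1F2, 627 to 947 TPM in aged saline and 1278 to 1916 TPM in young brains. Myelin markers summed to 5307 to 5533 TPM, 5928 to 7176 TPM and 8766 to 9328 TPM in the GRP-E1F2, aged saline and young libraries, and 4, 5 and 6 of 6 fell in the 3 comparisons. Astrocyte markers summed to 326 to 356 TPM, 409.9 to 435 TPM and 495 to 575 TPM, and 4, 3 and 5 of 6 fell and 0, 0 and 1 rose, while microglial ones summed to 113 to 146 TPM, 101.2 to 107 TPM and 74.7 to 88.5 TPM, and 2, 2 and 5 of 5 rose. Glial markers thus differed between the groups as well. Neocortical markers summed to 557 to 1009 TPM, 633 to 702 TPM and 405 to 514 TPM in the same order, and 0, 2 and 6 of 7 rose, striatal ones to 1057 to 3047 TPM, 1382 to 1877 TPM and 423 to 1342 TPM, and 0, 0 and 4 of 9 rose. Choroid plexus markers summed to 19.1 to 962 TPM, 158 to 1249 TPM and 2247 to 2303 TPM, and 0, 4 and 3 of 5 fell. Pituitary markers summed to 869.1 TPM in GRP-E1F2 library 2 and 438 TPM in library 3, against at most 21.97 TPM in each other library. Regional markers thus differed both between and within the groups. The 6 pan-neuronal markers summed to 3651 to 4584 TPM, 4085 to 4838 TPM and 4348 to 4495 TPM, overlapped between all groups, and 1, 1 and 3 rose while 0, 1 and 2 fell. The part of these differences in the values of the 98 genes was not tested.

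The length of a gene was taken as the median over all its transcripts of type protein coding in GENCODE vM21. It can differ from the length of the main transcript, and was 651 bases for Ndufs1, 533 for Uqcrc1 and 2675.5 for Atp5g1. By this measure nuclear members were short, with a median of 645 bases for the 81 of 84 with a length, against 2180.5 bases over 12715 tested genes. Across these 81 genes, the Spearman correlation of length with the log2 ratio of aged saline library 3 to library 1 was -0.33, against -0.13 over all tested genes, and with the ratio of young library 2 to library 1 it was -0.43, against 0.01. Across GRP-E1F2 library 2 over library 1 both correlations were -0.11. Members that were short by this measure thus tended to be higher in aged saline library 3 and young library 2. With the log2 fold change of GRP-E1F2 against aged saline the correlation was 0.36 across the members and 0.07 over all genes, with that of aged saline against young brains 0.00 and -0.05, and with that of GRP-E1F2 against young brains 0.16 and 0.01. Genes are not independent replicates, and the part of length in the fold changes was not tested.

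Of 51 assembly factors, 3 rose and 3 fell with GRP-E1F2 against aged saline, 0 rose and 2 fell in aged saline against young brains, and 4 rose and 9 fell with GRP-E1F2 against young brains. These were 11.8%, 3.92% and 25.5% of the list, where 20.8%, 16.7% and 46.6% of all genes tested were called. Cox20, a chaperone of the mitochondrially encoded COX2, had 57.3, 62.3 and 58.5 TPM with GRP-E1F2, 117, 108 and 80.4 TPM in aged saline and 94.4, 119 and 100.9 TPM in young brains. The GRP-E1F2 libraries were below all others (-0.75 ± 0.14 against aged saline, adjusted p = 0.00539; -0.80 ± 0.14 against young brains, adjusted p = 0.00136). Ndufaf2, a late assembly factor of complex I, fell with GRP-E1F2 against aged saline to 33.9 ± 1.37 TPM, against 47.6 ± 3.05 TPM (adjusted p = 0.00260). Ttc19, needed for complex III, rose in that comparison to 36.2 ± 2.35 TPM, against 29.0 ± 2.13 TPM (adjusted p = 0.0161), and so did Coa8, a complex IV assembly factor, to 53.2 ± 1.52 TPM, against 42.1 ± 1.11 TPM (adjusted p = 0.00534). Both also rose against young brains (0.45 and 0.34 on the log2 scale, adjusted p = 0.00101 and 0.00170). In aged saline against young brains, Sdhaf1, which helps mature the iron-sulfur subunit of complex II, fell (-0.28 ± 0.06, adjusted p = 0.0210), and so did Cox11, a copper chaperone of complex IV (-0.26 ± 0.07, adjusted p = 0.0413). Sdhaf1 fell further with GRP-E1F2 against young brains (-0.39 ± 0.06, adjusted p = 0.00105).

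Of 35 genes for the expression and biogenesis of mitochondria, 1 rose and 5 fell with GRP-E1F2 against aged saline, 0 rose and 2 fell in aged saline against young brains, and 2 rose and 10 fell with GRP-E1F2 against young brains. That is 17.1%, 5.71% and 34.3% of the list, where 20.8%, 16.7% and 46.6% of all genes were called. Polrmt, the RNA polymerase that transcribes mitochondrial DNA, had 7.28, 6.54 and 6.94 TPM with GRP-E1F2, 8.65, 9.25 and 10.1 TPM in aged saline and 9.46, 12.3 and 11.3 TPM in young brains. It fell with GRP-E1F2 against aged saline (-0.38 ± 0.10, adjusted p = 0.0251) and against young brains (-0.59 ± 0.10, adjusted p = 0.00121). Tfb1m, which methylates mitochondrial ribosomal RNA, rose to 5.45 ± 0.221 TPM with GRP-E1F2, against 3.86 ± 0.282 TPM in aged saline (adjusted p = 0.00995). Tsfm, a mitochondrial translation factor, and Gabpb1, a partner of the ETS factor GABPA, fell in that comparison (-0.32 ± 0.07, adjusted p = 0.0156, and -0.96 ± 0.25, adjusted p = 0.0281). In aged saline against young brains the 2 that fell were Polg2, an accessory subunit of the mitochondrial DNA polymerase (-0.38 ± 0.09, adjusted p = 0.0272), and Ppargc1b, a coactivator of mitochondrial genes (-0.41 ± 0.11, adjusted p = 0.0363), both at no more than 3.37 TPM in any library. Esrra, a nuclear receptor that drives respiratory chain genes, had 46.0, 46.2 and 46.1 TPM with GRP-E1F2, 50.9, 55.3 and 62.8 TPM in aged saline and 63.3, 70.4 and 67.4 TPM in young brains. No 2 groups overlapped, and its log2 fold change with GRP-E1F2 against young brains was -0.53 ± 0.08 (adjusted p = 0.00065).

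Of 13 tested genes for cytochrome c, carriers and uncoupling, 1 rose and 1 fell with GRP-E1F2 against aged saline, 0 rose and 3 fell in aged saline against young brains, and 2 rose and 5 fell with GRP-E1F2 against young brains. The shares called were 15.4%, 23.1% and 53.8%, near the 20.8%, 16.7% and 46.6% of all genes. Ucp2, a carrier of the uncoupling protein family, had 33.0, 32.0 and 33.6 TPM in the GRP-E1F2 libraries, 38.3, 44.9 and 49.4 TPM in the aged saline libraries and 65.0, 73.2 and 65.1 TPM in the young libraries. No 2 groups overlapped and it fell in each comparison (-0.41 ± 0.09, adjusted p = 0.0138, with GRP-E1F2 against aged saline, -0.61 ± 0.09, adjusted p = 0.00633, in aged saline against young brains, and -1.02 ± 0.09, adjusted p = 4.3e-05, with GRP-E1F2 against young brains). The ADP/ATP carriers Slc25a4 and Slc25a5, which exchange the product of complex V for its substrate, fell in aged saline against young brains (-0.17 ± 0.05, adjusted p = 0.0424, and -0.24 ± 0.07, adjusted p = 0.0396). Vdac1, a channel of the outer membrane, rose to 427 ± 25.0 TPM with GRP-E1F2, against 374 ± 6.22 TPM in aged saline (adjusted p = 0.0341). Slc25a14, another carrier of the uncoupling protein family, rose with GRP-E1F2 against young brains (0.58 ± 0.11, adjusted p = 0.00253). Cytochrome c itself, Cycs, had 1096, 1311 and 1192 TPM with GRP-E1F2, 1417, 1264 and 1059.7 TPM in aged saline and 1169.7, 1323 and 1234 TPM in young brains and did not pass in any comparison. Its aged saline libraries ran in the order of the mitochondrial genes, with library 1 the highest.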

How the data were processed

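RNA sequencing measured 9 brain libraries of KM mice, 3 per group. The tools named, per the submitters' processing notes, are GATK, HISAT2, Picard and SAMtools 0.1.18, and the build named is mm10. The deposited values are TPM per gene, computed by the authors. The tool, annotation, strand setting and treatment of multi-mapped reads behind them are not given in the sources used. Genes that share reads with near-identical copies, such as Atp5g1 to Atp5g3 or members with processed pseudogenes, are therefore uncertain. TPM holds no depth, and library sums were 999667 to 999929 TPM.

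Values were analysed as log2(TPM + 1), on which the changes of low genes are understated. The 13301 genes averaging 1 TPM or more were tested. The fit, by limma 3.58.1 with its trend option (R 4.3.3), took in all 9 libraries, with 3 contrasts, two-sided p-values and Benjamini-Hochberg adjustment over all genes tested. The words rose, fell and called stand for an adjusted p below 0.05. Of 98 members 97 were tested. The members and gene lists were chosen with earlier results of these data known, so no list is independent support. All 13 mitochondrial genes were named, and of the nuclear members the 2 most abundant per complex, those called, the 4 largest changes each way and the isoforms, and of other lists up to 4 called genes per comparison. Ndufa10, Sdhb, Ndufs1, Ndufs3, Atp5g1, Atp5g2, Atp5k, Ndufa11 and Cycs were added after their values were seen. A gene that the rule took is not reported here. Of the 52 assembly factors listed, Coa1 was not found under that name. Replicate numbers did not pair the libraries. After the group mean of each gene was subtracted, same-numbered libraries of different groups correlated at -0.05 to 0.13. Differently numbered ones correlated at -0.13 to 0.12. The procedure was tried on simulated data first. Python 3.11.15, numpy 2.4.6, pandas 2.3.3 and matplotlib 3.10.9 were also used.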

Additional observations from a re-analysis of the deposited data

How the results depend on the processing

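No member called in the main fit changed sign under any alternative. With GRP-E1F2 against aged saline, 1 nuclear member not called there rose when GRP-E1F2 library 1 was left out. Counts of called nuclear members with GRP-E1F2 against aged saline, in aged saline against young brains and with GRP-E1F2 against young brains were 5, 8 and 42, and of mitochondrial ones 3, 3 and 0. Pseudocounts of 0.1 and 5 TPM, no filter, a mean of at least 5 TPM, quantile normalisation and leaving out the mitochondrial genes kept these counts within 1.5 times. Fitting only the 2 groups compared gave 3 nuclear and 1 mitochondrial calls with GRP-E1F2 against aged saline, and 1 mitochondrial call with GRP-E1F2 against young brains. Fitting 2 libraries per group, an alternative taken from earlier work that had seen the data, gave 0 and 0 calls for GRP-E1F2 against aged saline, 0 and 0 for aged saline against young brains, and 4 nuclear calls for GRP-E1F2 against young brains. Median-of-ratios scaling gave 4 nuclear calls in aged saline against young brains and 23 with GRP-E1F2 against young brains, where the nuclear median moved to -0.12 and the mitochondrial one to 0.12. Without 1 library, nuclear calls ranged over 1 to 20, 1 to 16 and 30 to 48, and mitochondrial calls over 0 to 4, 0 to 6 and 0 to 1. The share of all genes called in these fits ranged over 10.1% to 23.1%, 2.57% to 19.9% and 35.7% to 49.9%. The replicate number as a block gave 6, 10 and 42 nuclear and 4, 3 and 0 mitochondrial calls, and not every sample correlated best with its own number. Over all genes, 994 rose and 1777 fell with GRP-E1F2 against aged saline, 729 and 1488 in aged saline against young brains, and 2294 and 3910 with GRP-E1F2 against young brains. Median-of-ratios scaling made these 1300 and 1609, 919 and 1019, and 3017 and 3069, and quantile normalisation 1466 and 1470, 966 and 1102, and 3115 and 2978. The cause of these shifts was not tested. Over all settings, calls of single members held in 102 of 148, 141 of 206 and 661 of 798 cases. With no depth in TPM, counting error is unknown, which bears most on the isoforms at a few TPM.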
